A study of Homo sapiens with 9 samples.

Results

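Transcript levels of 40 genes of glycolysis and of the response to low oxygen were followed in SH-SY5Y, a cell line from a human neuroblastoma, a tumour of the sympathetic nervous system. The genes were given as a list of symbols that uses no measured value as its rule, although it was drawn up with earlier results of these data known, and all 40 were matched among 61487 gene identifiers. Of these, 39 had enough reads to be tested among 17806 tested genes, and CA9 did not. For 72 h the cultures received vehicle, 10 µM citrinin or 20 µM citrinin, a mycotoxin of several moulds that grow on stored grain, with 3 libraries of total RNA in each group and 9 in all. No genotype or other agent is given in the labels, the medium held serum in all groups, and no library was labelled as kept in low oxygen. Whether replicates came from separate cultures is not stated. In the fit used for calls, the spread behind each p-value is that left between these libraries once differences between replicate numbers are taken out. This spread may be technical. In bulk RNA, fewer cells of a kind and less RNA per cell cannot be told apart.

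Glycolysis splits glucose into pyruvate in the cytosol: the early steps spend ATP to trap and phosphorylate the sugar, and the later steps, from glyceraldehyde 3-phosphate to pyruvate, return it. Lactate dehydrogenase turns pyruvate into lactate, while pyruvate dehydrogenase kinases inhibit the mitochondrial enzyme that turns pyruvate into acetyl-CoA. In low oxygen the transcription factors HIF-1α and HIF-2α escape hydroxylation by the EGLN prolyl hydroxylases, which mark them for VHL, and they raise most of these genes by binding RCGTG motifs. Neuroblastoma cells, like many tumour cells, use glycolysis also when oxygen is present.

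Each library held 15678443 to 19604367 reads assigned to genes, and the 40 genes took 0.888% to 0.997% of them. Levels are given as CPM, the gene counts scaled to library depth with factors from the trimmed mean of M values (TMM), and levels of different genes are compared only after division by exon length (RPKM). A count of 3 reads was worth 0.153 to 0.191 CPM. All 15 sympathetic neuroblastoma markers were expressed enough to be tested, and their summed level ran from 2770 to 3885 CPM at 20 µM and from 3403 to 4267 CPM with vehicle. Deviations of the libraries from their dose means correlated within a replicate number, so the changes below come from edgeR's quasi-likelihood fit that takes replicate number as a block. They are written as log2 fold change ± standard error, with Benjamini-Hochberg adjustment over all tested genes and a threshold of 0.05. The fit without the block called no gene in any comparison.

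The promoters of 3 genes are shown because 2 of them are the genes that passed the threshold at 20 µM, and the other, ENO1, had the next smallest p. Each window runs from 250 bases before the start of the RefSeq gene on GRCh38.p14 to 50 bases after it, and all 3 lie on the minus strand, at chr15:72231141-72231440 for PKM, chr14:33951025-33951324 for EGLN3 and chr1:8878637-8878936 for ENO1. Capitals mark GCGTG or its reverse complement CACGC (the HIF core motif with G in first place), and TGACNNNGC, the core of the antioxidant response element that NRF2 binds; none of the marked motifs overlaps another.
PKM: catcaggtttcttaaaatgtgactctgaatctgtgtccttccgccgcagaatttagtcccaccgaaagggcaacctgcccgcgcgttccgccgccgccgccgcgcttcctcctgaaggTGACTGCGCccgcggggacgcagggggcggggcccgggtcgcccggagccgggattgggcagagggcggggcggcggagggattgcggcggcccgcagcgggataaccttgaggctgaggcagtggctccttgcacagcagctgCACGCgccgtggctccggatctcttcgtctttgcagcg
EGLN3: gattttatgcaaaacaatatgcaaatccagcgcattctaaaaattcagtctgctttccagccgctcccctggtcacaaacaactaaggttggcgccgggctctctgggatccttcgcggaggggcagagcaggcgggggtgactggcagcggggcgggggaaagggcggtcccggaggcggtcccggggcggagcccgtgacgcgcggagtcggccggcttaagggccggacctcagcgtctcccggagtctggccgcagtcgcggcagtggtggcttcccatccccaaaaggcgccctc
ENO1: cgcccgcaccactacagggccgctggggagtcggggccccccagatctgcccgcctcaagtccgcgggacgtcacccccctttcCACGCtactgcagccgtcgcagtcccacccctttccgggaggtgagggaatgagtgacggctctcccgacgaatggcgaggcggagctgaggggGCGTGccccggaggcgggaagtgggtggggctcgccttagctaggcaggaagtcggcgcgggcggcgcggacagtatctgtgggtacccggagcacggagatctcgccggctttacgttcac
PKM held 1 match to GCGTG and 1 to TGACNNNGC, ENO1 held 2 matches to GCGTG, and EGLN3 held none of the motifs searched on either strand. A window was on hand for 34 of the 40 genes. ACGTG, the form of the HIF core with A in first place, stood on either strand in 14 of the 34 windows (41.2%), against 21.4% of the 35116 windows in the table. ACGTG or GCGTG stood in 25 of 34 (73.5%), against 48.4% of all windows. TGACNNNGC stood in 5 of 34 (14.7%), those of ALDOC, GAPDH, HIF1A, PFKL and PKM, against 13.3% of all windows. LDHA had the most matches to ACGTG, 5. The 35116 windows were not limited to 1 per gene or to expressed genes, and were not matched for base content. The shares of the 34 windows and of all windows are therefore not on a like basis. A match is a description of letters in the window and shows no binding.

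At 20 µM citrinin against vehicle, 2 of the 39 tested genes rose, PKM and EGLN3, none fell, and 37 did not pass the threshold. Of all tested genes 0.848% rose and 1.36% fell. The median log2 fold change of the 39 was 0.06, beside -0.00 over all tested genes, and 28 of the 39 were above 0. The unadjusted p was below 0.05 for 8 of the 39, beside 13.1% of all tested genes, and for none of them without the block, where 2.17% of all genes were. The changes were small. For 30 of the 37 genes that did not pass, the 95% confidence interval of the fold lay between 0.8 and 1.25.

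**Figure D1:**
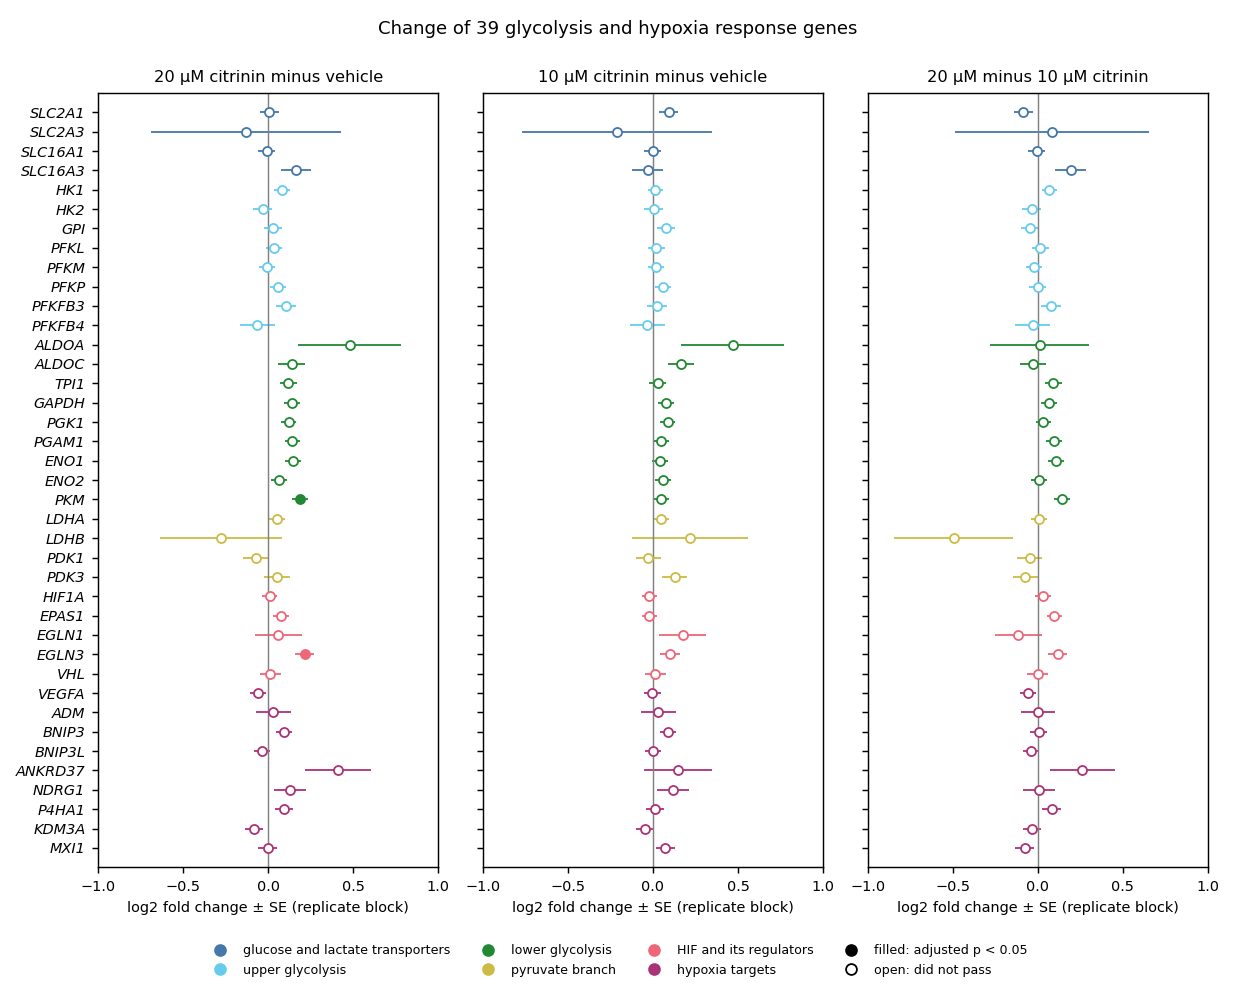
Log2 fold change with its standard error for the 39 tested genes (rows, coloured by role) in each comparison (panels), from the fit with the replicate block. Filled points passed an adjusted p of 0.05: PKM and EGLN3 at 20 µM against vehicle, and no gene in the other 2 panels. All 9 genes of lower glycolysis lie right of 0 in the first panel.

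The genes of lower glycolysis, grouped here from the aldolases to pyruvate kinase, held 1 of the 2 calls. All 9 had a log2 fold change above 0 at 20 µM, from 0.06 to 0.48 with a median of 0.14, and all 9 were higher at 20 µM than with vehicle in each of the 3 same-numbered pairs. Of the 39 genes, 16 were higher in all 3 pairs and 1, VEGFA, was lower in all 3. The share of all tested genes that did so was not worked out, so these counts of pairs have no base beside them. An unadjusted p below 0.05 was reached by 6 of the 9. The position of the whole group above 0 was not tested as a group.

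PKM encodes the muscle-type pyruvate kinase, the last enzyme of the pathway, and its gene (ENSG00000067225) lies at chr15:72199029-72231822 on GRCh38. PKM had 1234, 1369.7 and 1496 CPM in vehicle replicates 1, 2 and 3, 1235, 1488 and 1520.1 CPM at 10 µM, and 1466, 1547 and 1651 CPM at 20 µM. The 20 µM library was the highest of its replicate number in every case, although the groups overlapped. PKM averaged 1555 ± 92.7 CPM at 20 µM and 1367 ± 131 CPM with vehicle (SD, n = 3 each), a log2 fold change of 0.19 ± 0.05 (1.14-fold, 95% interval 1.07 to 1.22; adjusted p = 0.0256 in edgeR's quasi-likelihood test with the block). Within pairs the fold was 1.19, 1.13 and 1.10. The call was lost without any 1 of the vehicle libraries, without replicate 3 at 10 µM and without replicate 3 at 20 µM (adjusted p = 0.0954 to 0.324), and over the 9 fits that each left out 1 library the log2 fold change ran from 0.15 to 0.21. Gene counts do not separate the M1 and M2 splice forms of PKM.

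ENO1 encodes α-enolase, which makes phosphoenolpyruvate. ENO1 had 1183, 1129 and 1144 CPM in vehicle replicates 1, 2 and 3, 1154, 1201 and 1204 CPM at 10 µM, and 1356, 1199 and 1276 CPM at 20 µM. Every 20 µM library was above every vehicle library. The log2 fold change was 0.15 ± 0.05 (adjusted p = 0.109 in edgeR with the block), which did not pass; it passed at 0.0209 without replicate 2 at 10 µM, and over the fits without 1 library the adjusted p reached 0.455.

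PGK1 encodes phosphoglycerate kinase, the first ATP-yielding step. PGK1 had 447, 488 and 479.7 CPM in vehicle replicates 1, 2 and 3, 452, 547 and 505 CPM at 10 µM, and 495, 523 and 519 CPM at 20 µM. Its groups at 20 µM and with vehicle did not overlap either, and its log2 fold change of 0.12 ± 0.05 did not pass (adjusted p = 0.221 in edgeR with the block). PGAM1, phosphoglycerate mutase, was the other gene without overlap, with 246, 263 and 261 CPM at 20 µM against 225, 242 and 231 CPM with vehicle (0.14 ± 0.05, adjusted p = 0.117 in the same edgeR fit). These 3 of 39 genes stood higher without overlap, beside 3.41% of all tested genes, and none stood lower without overlap, beside 3.35%.

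GAPDH, glyceraldehyde-3-phosphate dehydrogenase and the most abundant of the 40 per length, had 1320.2, 1293 and 1432 CPM in vehicle replicates 1, 2 and 3, 1318, 1468 and 1478 CPM at 10 µM, and 1493, 1421 and 1545 CPM at 20 µM. The 20 µM group was higher by 0.14 ± 0.05 (log2) but overlapped with vehicle by 1 library each, and did not pass (adjusted p = 0.142 in edgeR with the block). TPI1, triose phosphate isomerase, differed by 0.12 ± 0.05 and did not pass (adjusted p = 0.288 in the same fit). Names of annotated pseudogenes matched GAPDH 65 times, PGAM1 13 times, PKM 5 times, and ENO1 and TPI1 4 times each. In other roles they matched BNIP3 44 times and LDHA 6 times. Reads that fit more than 1 place were not counted, so the level of these genes is uncertain.

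The other genes of lower glycolysis were the aldolases, which split fructose 1,6-bisphosphate, and ENO2, the neuronal enolase, at 0.06 ± 0.05. ALDOC had 44.6, 33.9 and 28.9 CPM in vehicle replicates 1, 2 and 3, 42.6, 39.9 and 36.5 CPM at 10 µM, and 48.8, 37.4 and 31.8 CPM at 20 µM. Its doses overlapped widely, and at 20 µM its change was 0.14 ± 0.08 (adjusted p = 0.474 in edgeR with the block). ALDOA had the largest change of all 39, 0.48 ± 0.30, at 3.49, 1.54 and 1.82 CPM at 20 µM against 1.99, 1.25 and 1.58 CPM with vehicle (adjusted p = 0.541 in the same fit). Of the exon bases of ALDOA, 46.5% are free of another annotated gene. Another protein-coding identifier (ENSG00000285043) covers the rest, and reads on both were set apart as ambiguous, so the level of the aldolase A transcript is uncertain.

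**Figure D2:**
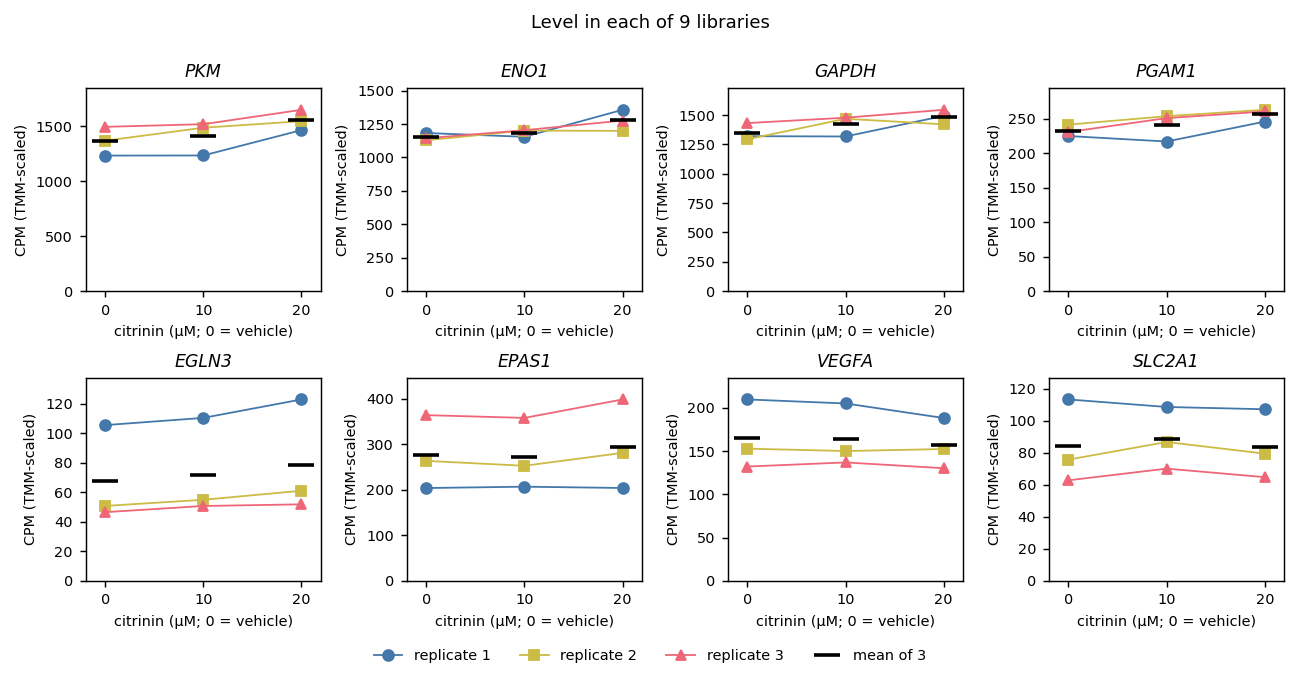
TMM-scaled CPM of 8 genes in each of the 9 libraries against citrinin dose (0 is vehicle); lines join libraries with the same replicate number, and black bars are group means of 3. PKM, ENO1, GAPDH, PGAM1 and EGLN3 are higher at 20 µM than with vehicle within each replicate number. EGLN3, EPAS1, VEGFA and SLC2A1 lie apart by replicate number, and of these EPAS1, VEGFA and SLC2A1 have little slope along the dose.

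Upper glycolysis, from hexokinase to the bifunctional enzymes that set fructose 2,6-bisphosphate, had no gene past the threshold among 8. Their log2 fold changes at 20 µM ran from -0.06 to 0.10 with a median of 0.03. HK1, the hexokinase with the highest level per length of this role, had 241, 309 and 307 CPM in vehicle replicates 1, 2 and 3, 236, 316 and 316 CPM at 10 µM, and 237, 329 and 348 CPM at 20 µM. Replicate 1 was the lowest at each dose, and the change at 20 µM was 0.08 ± 0.05 (adjusted p = 0.466 in edgeR with the block). HK2, the inducible hexokinase, changed by -0.03 ± 0.05. Of the hexokinase level per length, HK1 made up 72.5 ± 6.4% at 20 µM and 70.9 ± 6.8% with vehicle (SD, n = 3 each). PFKP, the platelet-type phosphofructokinase, made up 50.2 ± 4.9% of the 3 phosphofructokinases at 20 µM and 49.4 ± 3.7% with vehicle. Both differences were smaller than the spread between replicates of a group. Within replicate numbers 1, 2 and 3, the HK1 share was higher at 20 µM in each pair, with 66%, 72.5% and 78.9% against 63.6%, 72.2% and 76.9% with vehicle, and the PFKP share was higher in 2 of 3 pairs; neither was tested. Such shares rest on the merged exon length of all annotated transcripts, 4836 bases for PFKP, 7318 for PFKM and 8926 for PFKL. They would shift with other lengths.

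None of the 4 transporters passed. SLC2A1, which encodes the glucose transporter GLUT1, had 107, 79.4 and 64.7 CPM in replicates 1, 2 and 3 at 20 µM against 113, 75.7 and 62.8 CPM with vehicle, a change of 0.01 ± 0.06 with a 95% interval of 0.927 to 1.09 in fold. SLC2A3, the neuronal glucose transporter GLUT3, was near the limit of the counts, at 0.818, 0.113 and 0.645 CPM with vehicle, 0.404, 0.0645 and 0.868 CPM at 10 µM, and 0.843, 0.172 and 0.399 CPM at 20 µM for replicates 1, 2 and 3. Replicate 2 was the lowest at each dose, and at these counts no change with dose was detectable. Among the monocarboxylate carriers that export lactate, SLC16A1 (MCT1) had the highest level per length of the 4 transporters. It had 103, 98.4 and 101 CPM in vehicle replicates 1, 2 and 3, 106, 96.9 and 98.9 CPM at 10 µM, and 98, 97.7 and 105 CPM at 20 µM, so its groups lay on top of each other. SLC16A3 (MCT4) had 17.2, 19.8 and 25.4 CPM with vehicle, 14.8, 22.6 and 23.9 CPM at 10 µM, and 18.6, 24.6 and 26.7 CPM at 20 µM in the same order. It was higher at 20 µM in all 3 pairs against vehicle, by 0.16 ± 0.09, and did not pass (adjusted p = 0.464 in edgeR with the block).

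At the pyruvate branch none of 4 genes passed. LDHA, the lactate dehydrogenase subunit favoured in glycolytic cells, had 752, 796 and 745 CPM in vehicle replicates 1, 2 and 3, 739, 849 and 786 CPM at 10 µM, and 801, 782 and 795 CPM at 20 µM, a change of 0.05 ± 0.05 at 20 µM with a 95% interval of 0.971 to 1.11 in fold. LDHB had 2.10, 1.02 and 1.29 CPM with vehicle, 1.5, 2.26 and 1.38 CPM at 10 µM, and 1.08, 1.09 and 1.43 CPM at 20 µM. Of its exon bases 66.6% are free of another gene, and a protein-coding identifier on the same strand (ENSG00000285854) covers the rest, so its low counts are uncertain and the ratio of the subunits is not given. The pyruvate dehydrogenase kinases PDK1 and PDK3 changed by -0.07 ± 0.07 and 0.05 ± 0.07.

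Among HIF and its regulators, EGLN3 rose and the other 4 did not pass. EGLN3 (ENSG00000129521; chr14:33924231-34462774 on GRCh38) encodes a prolyl hydroxylase of HIF-α that is itself a HIF target. EGLN3 had 106, 50.8 and 46.5 CPM in vehicle replicates 1, 2 and 3, 110.5, 54.9 and 50.7 CPM at 10 µM, and 123, 61.1 and 51.8 CPM at 20 µM. Replicate 1 stood far above the others at every dose, so the groups overlapped, while within each replicate number the order was vehicle, 10 µM, 20 µM. EGLN3 averaged 78.6 ± 38.7 CPM at 20 µM and 67.6 ± 32.9 CPM with vehicle (SD, n = 3 each), and its fitted change was 0.22 ± 0.06 (1.16-fold, 95% interval 1.07 to 1.26; adjusted p = 0.0375 in edgeR's quasi-likelihood test with the block). Within pairs the fold was 1.16, 1.20 and 1.11. The call held without replicate 1 or replicate 2 at 10 µM and was lost without any 1 of the other 7 libraries (adjusted p = 0.0811 to 0.322), and DESeq2 with the block gave 0.0837. Without the block, leaving out replicate 1 at 20 µM turned the log2 fold change to -0.26, and the range over such fits was -0.26 to 0.69.

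HIF1A, which encodes HIF-1α, had 287, 406 and 444 CPM in vehicle replicates 1, 2 and 3, 296, 377 and 443 CPM at 10 µM, and 298, 402 and 440.4 CPM at 20 µM. Its groups overlapped fully, and the fold at 20 µM was 1.01 with a 95% interval of 0.943 to 1.07. EPAS1, which encodes HIF-2α, changed by 0.08 ± 0.05, EGLN1, the main oxygen-sensing prolyl hydroxylase, by 0.06 ± 0.14, and VHL, the recognition subunit of the ligase that removes HIF-α, by 0.01 ± 0.06. HIF-α is controlled mostly through the stability of the protein, which transcript counts do not measure.

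Of the 10 hypoxia targets none of the 9 tested passed at 20 µM; their changes ran from -0.08 to 0.41 with a median of 0.03. CA9, a surface carbonic anhydrase that is a widely used hypoxia marker, had 5, 9 and 5 reads in vehicle replicates 1, 2 and 3, 3, 3 and 1 at 10 µM, and 2, 8 and 5 at 20 µM. These counts are too few for a fold. VEGFA, the angiogenic growth factor, had 188, 152 and 130.2 CPM in replicates 1, 2 and 3 at 20 µM against 209.8, 153 and 132 CPM with vehicle, a change of -0.06 ± 0.05 (adjusted p = 0.640 in edgeR with the block). ANKRD37, an ankyrin repeat protein gene, had 4.15, 2.95 and 2.87 CPM in vehicle replicates 1, 2 and 3, 3.63, 3.48 and 3.83 CPM at 10 µM, and 4.88, 4.52 and 3.82 CPM at 20 µM. It was higher at 20 µM in all 3 pairs, by 0.41 ± 0.19, and did not pass (adjusted p = 0.364 in the same fit); 64.8% of its exon bases are free of another gene. The mitophagy receptors BNIP3 and BNIP3L changed by 0.09 ± 0.05 and -0.04 ± 0.05. BNIP3L, with the highest level per length of this role, had 165, 186 and 154 CPM in vehicle replicates 1, 2 and 3, 162, 190.5 and 154 CPM at 10 µM, and 152, 183 and 157 CPM at 20 µM, with full overlap.

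At 10 µM against vehicle none of the 39 genes passed, beside 0.0337% of all tested genes that rose and 0% that fell, and 1 of the 39 had an unadjusted p below 0.05 in edgeR with the block (3.59% of all genes did), with none below it without the block (0.646% of all genes). DESeq2 and limma-voom with the block called none of the 39 either. Their median change was 0.04 (0.01 without replicate 2 at 10 µM and 0.08 without replicate 1 at 10 µM), and no gene stood apart without overlap (2.06% of all genes were higher and 1.94% lower in that way). The 3 smallest p-values were those of ALDOC (0.17 ± 0.08), PGK1 (0.09 ± 0.05) and BNIP3 (0.09 ± 0.05). BNIP3 had 166, 174 and 145 CPM in vehicle replicates 1, 2 and 3, 163, 194 and 158 CPM at 10 µM, and 173, 185 and 159 CPM at 20 µM. PKM differed by 0.05 ± 0.05 and EGLN3 by 0.10 ± 0.06 at 10 µM. The 95% interval of the fold lay between 0.8 and 1.25 for 33 of the 39.

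At 20 µM against 10 µM none of the 39 passed, while 0.180% of all tested genes rose and 0.264% fell. An unadjusted p below 0.05 was reached by 6 of the 39 in edgeR with the block (8.81% of all genes) and by none without it (1.18% of all genes), and DESeq2 and limma-voom with the block called none. PKM had the smallest p, with a change of 0.14 ± 0.05 (adjusted p = 0.265 in edgeR with the block), and it passed at 0.0324 without replicate 2 at 10 µM. No gene of the 39 stood apart without overlap, beside 2.37% of all genes that were higher and 2.5% that were lower in that way. ENO1 differed by 0.10 ± 0.05 and SLC16A3 by 0.19 ± 0.09. The 3 comparisons share libraries, so the changes of PKM and EGLN3 at 20 µM against vehicle and against 10 µM are not separate observations.

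Most of these genes differed more between replicate numbers than between doses. In the F test of the replicate terms of the same edgeR fit, 29 of the 39 genes differed between replicate numbers, beside 43.3% of all tested genes. Replicate number took a median of 79.2% of the variance of log2 CPM of the 39 genes and dose 7.59%, against 55.3% and 11.4% over all tested genes; both shares include noise between libraries. The share of replicate number was above that of dose for 35 of the 39, beside 13998 of all 17806 tested genes. The exceptions among the 39 were ENO1, where dose took 62.7% and replicate number 10.9%, GAPDH, ANKRD37 and LDHB. The 39 genes were measured more precisely than most. Their median standard error at 20 µM against vehicle was 0.053 with the block, beside 0.102 over all tested genes. The counts and shares of the 39 and of all tested genes are therefore not on a like basis.

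**Figure D3:**
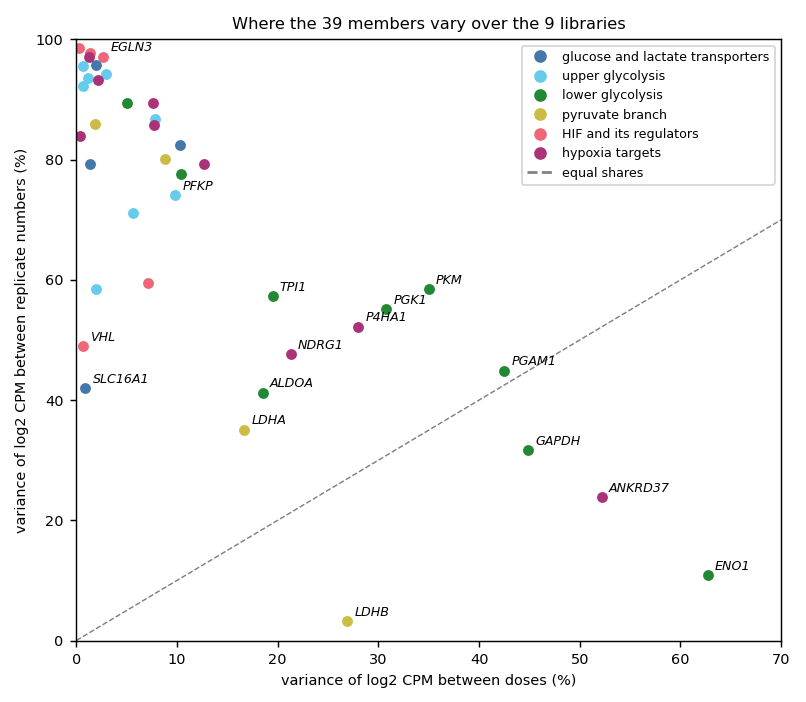
Share of the variance of log2 CPM over the 9 libraries that lies between doses (horizontal axis, %) and between replicate numbers (vertical axis, %) for each of the 39 tested genes, coloured by role. Most points crowd the upper left, with a median of 7.59% for dose and 79.2% for replicate number, and ENO1, ANKRD37, GAPDH and LDHB lie below the dashed line of equal shares.

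The genes did not share 1 order of replicate numbers. EGLN3 differed most among the genes above 1 CPM, with means over the 3 doses of 113 CPM in replicate 1, 55.6 CPM in replicate 2 and 49.7 CPM in replicate 3 (highest over lowest 2.27-fold, adjusted p = 6.16e-16 in edgeR's F test). SLC2A1, with 109.7, 80.6 and 65.9 CPM, and VEGFA, with 201, 152 and 133 CPM, were likewise highest in replicate 1 and lowest in replicate 3. EPAS1 had the opposite order, with 205, 266 and 373 CPM in replicates 1, 2 and 3 (1.82-fold, adjusted p = 9.24e-14), and so did HIF1A, with 294, 395 and 443 CPM (1.51-fold, adjusted p = 1.03e-10 in the same F test). The transcripts of both HIF-α subunits were lowest in the libraries in which those of EGLN3, VEGFA and SLC2A1, known HIF targets, were highest. Some other genes of these pathways had the order of EGLN3, among them HK2, PFKFB3, ALDOC, KDM3A and MXI1, and others did not. PKM, SLC16A3 and EGLN1 were lowest in replicate 1 and highest in replicate 3, like the HIF-α subunits, and BNIP3 and BNIP3L were highest in replicate 2. EGLN3, SLC2A1, VEGFA and EPAS1 were singled out here after their values were seen.

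Of the 29 genes that differed, 10 were highest in replicate 1 and lowest in replicate 3 (SLC2A1, HK2, GPI, PFKFB3, ALDOC, TPI1, EGLN3, VEGFA, KDM3A and MXI1) and 6 the reverse (SLC16A3, HK1, PKM, HIF1A, EPAS1 and EGLN1). The other 13 had other orders. All 8 genes of upper glycolysis differed, as did 6 of 9 of lower glycolysis, 3 of 4 transporters, 2 of 4 at the pyruvate branch, 4 of 5 of HIF and its regulators and 6 of 9 hypoxia targets. In the hexokinases, HK1 made up 63.6% to 66% of the level per length in the replicate 1 libraries and 76.0% to 78.9% in the replicate 3 libraries.

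Other measures moved with replicate number as well. The summed level of 15 sympathetic markers was 3885 to 4267 CPM in replicate 1 libraries, 3438 to 4184 in replicate 2 and 2770 to 3403 in replicate 3. That of 12 mesenchymal markers was 4948 to 5144, 3618 to 4038 and 5353 to 5767 CPM in the same order. Most of this sum was FN1, at 3173 to 3446, 2446.5 to 2908 and 3778 to 4094 CPM. Neither list shared 1 order of replicate numbers. CD44 was lowest in replicate 1 and highest in replicate 3 at each dose, while COL1A1 and SNAI2 were highest in replicate 1. Among the sympathetic markers RET and CHGB were highest in replicate 2. Gene reads per library were 16700919 to 17273034, 15678443 to 17566221 and 17164852 to 19604367. The part of these in the differences between replicate numbers was not tested, and the labels do not say what a replicate number stands for.

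**Figure D4:**
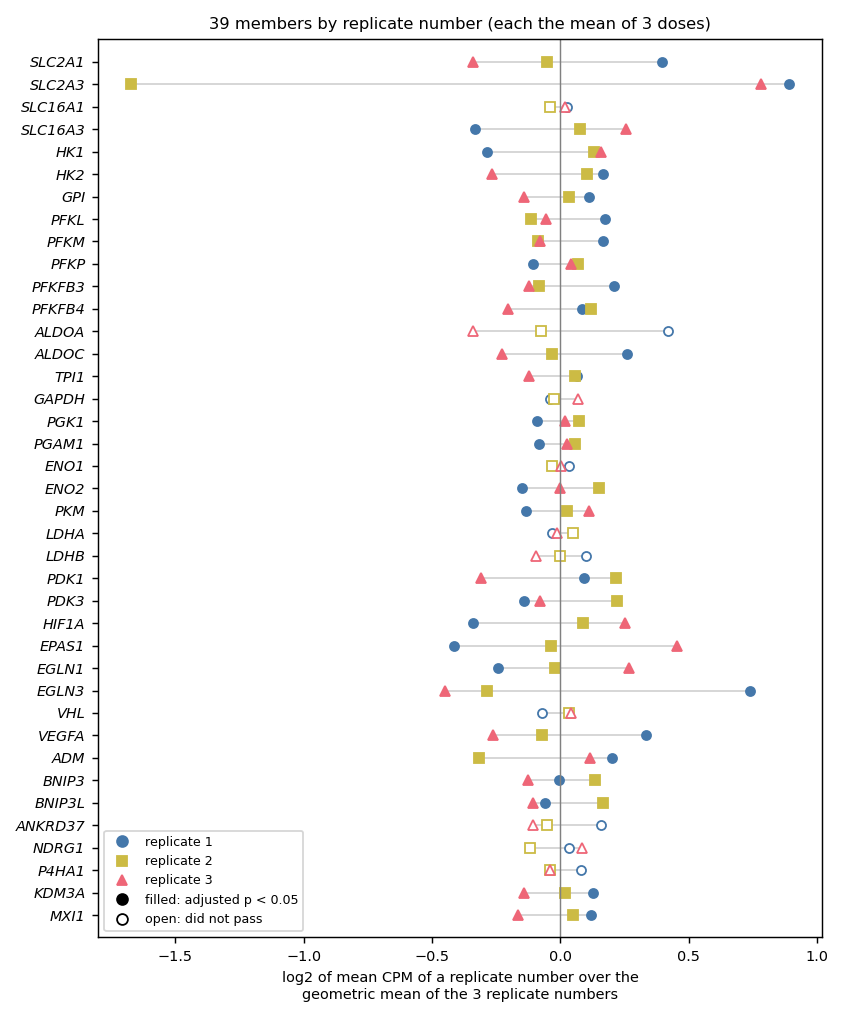
Mean CPM of each replicate number (mean of its 3 libraries, 1 per dose) over the geometric mean of the 3 replicate numbers, on a log2 scale, for the 39 tested genes; filled symbols passed the F test at an adjusted p of 0.05. EGLN3, SLC2A1 and VEGFA lie highest in replicate 1, and EPAS1, HIF1A and HK1 highest in replicate 3.

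Per length, the enzymes of lower glycolysis led the 40 genes. With vehicle GAPDH averaged 452 ± 24.6 RPKM, ENO1 218 ± 5.3, TPI1 213 ± 15.2 and PKM 159 ± 15.3 (SD, n = 3), and the levels of ENO1 and TPI1 did not differ beyond their spread. LDHA followed at 123 RPKM, PGAM1 at 90.6, PGK1 at 85.6 and HIF1A at 73.6. The leading genes of the other roles were HK1 at 45.4 RPKM, BNIP3L at 39.1 and SLC16A1 at 19.0, the last not separable from SLC2A1 at 17.8 ± 5.6. These levels pass over splice forms, since the exons of all annotated transcripts were merged. The summed level of the 40 genes was 9687 to 9922 CPM at 20 µM and 8956 to 9239 CPM with vehicle, a description of the libraries with no test.

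Further genes of the same pathways were read from lists that had been chosen with earlier results of these data known. Of 36 other hypoxia targets, 35 were tested, and at 20 µM against vehicle 2 rose and 1 fell, with a median change of 0.05. Over all tested genes 0.848% rose and 1.36% fell. TXNIP, which encodes a thioredoxin-binding protein that limits glucose uptake, fell to 231, 214 and 218 CPM at 20 µM, against 257, 271 and 273 CPM with vehicle (-0.27 ± 0.05, adjusted p = 0.000982 in edgeR with the block). Its groups did not overlap, the call was lost without vehicle replicate 2 or without replicate 3 at 20 µM (adjusted p up to 0.0731) and without all of replicate 3 (0.315), and it also fell at 20 µM against 10 µM (-0.23 ± 0.05, adjusted p = 0.021), a call lost without vehicle replicate 3, replicate 3 at 10 µM, or replicate 2 or 3 at 20 µM (up to 0.568), with only these 2 groups in the fit (0.194), and without all of replicate 3 (0.998). GBE1, the glycogen branching enzyme, rose by 0.30 ± 0.06, with 55.8, 76.0 and 81.9 CPM at 20 µM against 42.5, 57.8 and 75.4 CPM with vehicle (adjusted p = 0.00817 in the same fit), a call lost without vehicle replicate 1 or 2 or replicate 2 at 20 µM (up to 0.191), and without all of replicate 2 (0.0608) or replicate 3 (0.0593). CA12, a surface carbonic anhydrase, rose by 0.21 ± 0.06 (adjusted p = 0.0443), a call lost with DESeq2 (0.102) and without vehicle replicate 2 or 3, replicate 3 at 10 µM, or replicate 2 or 3 at 20 µM (up to 0.415), and without all of replicate 2 (0.131) or replicate 3 (0.718).

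None of the 21 tested of 31 other glycolysis genes passed in any comparison; at 20 µM the smallest p was that of PFKFB1, a liver-type bifunctional enzyme below 2 CPM in every library (-1.56 ± 0.51, adjusted p = 0.124 in edgeR with the block). None of 11 genes of pyruvate dehydrogenase and pyruvate import passed (PDK4, -0.34 ± 0.12, adjusted p = 0.146), nor any of 14 other components of the HIF pathway (CREBBP, a coactivator of HIF, -0.20 ± 0.06, adjusted p = 0.0504). In the same 20 µM libraries all 4 of a short list of NRF2 targets rose, beside 0.848% of all tested genes. NQO1 rose by 0.98 ± 0.06 (adjusted p = 1.21e-11 in edgeR with the block).

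Markers of cell state moved with 20 µM citrinin too in the fit with the block. Of 15 sympathetic markers 11 fell and none rose, and of 12 mesenchymal markers 5 rose and none fell. Over all tested genes 1.36% fell and 0.848% rose. In neither list did a gene pass without the block or stand apart from vehicle without overlap. Of all tested genes 3.35% were lower and 3.41% higher without overlap. The calls in these 2 lists were not refitted without single libraries. The mesenchymal list had no common direction, with a median log2 fold change of 0.02, 6 genes above 0 and 6 below it, and values from -0.26 to 0.44. The summed mesenchymal level, most of it FN1, was 4038 to 5767 CPM at 20 µM and 3661 to 5372 CPM with vehicle. Of 8 glial and Schwann markers 5 were tested and none passed, with sums of 9.55 to 11.1 CPM at 20 µM and 6.77 to 10.9 CPM with vehicle, and CDH19 had no read. Of 8 endothelial and blood cell markers PECAM1 alone was tested and did not pass, and their sums stayed at 0.915 to 2.23 CPM at 20 µM and 0.821 to 1.40 CPM with vehicle. The part of these markers in the changes of PKM and EGLN3 was not tested.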

How the data were processed

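Per the labels, total RNA of 9 SH-SY5Y libraries was sequenced. Per the submitters' processing notes, FastQC, cutadapt, STAR and edgeR were used on GRCh38. For tool versions and the annotation used in counting, the sources used here state nothing. Raw counts of reads per gene were deposited for each library, over both strands together and per strand. Strand counts were nearly equal (ratio 1.007 to 1.020), so the joint counts were used, and reads of a gene and its antisense partner cannot be told apart. Unmapped (2.86% to 3.62%), multiply placed (2.22% to 2.61%), outside annotated exons (6.75% to 7.98%) and ambiguous reads (9.51% to 10.1%) entered neither library sizes nor tests. Coordinates, lengths and overlaps were taken from GENCODE 29 (GRCh38), with 58312 of 61487 identifiers found there, and promoters from RefSeq (GRCh38.p14).

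The test of the design was the quasi-likelihood test of edgeR (robust, TMM, filterByExpr) on 9 libraries and 3 groups without a covariate, at an adjusted p of 0.05 over 17806 genes, with R 4.3.3, edgeR 4.0.16, limma 3.58.1 and DESeq2 1.42.0. Its alternative added replicate number as a block, to be used for calls if the numbers paired the samples. The numbers come from the sample titles. Deviations of same-numbered libraries from their group means correlated at 0.532 to 0.745 in all 9 pairs, above the limit of 0.1, so the numbers were taken to pair the samples. Differently numbered libraries correlated at -0.602 to 0.175. Deviations from a group mean cancel out within the group, so this second range is not separate evidence of pairing. The block left 4 residual degrees of freedom, against 6 without it. All pairs of libraries within a group differed beyond sampling noise (chi-square over degrees of freedom 8.85 or more). Standard errors are the fold change over the root of the F statistic. The scripts were tested on simulated data.

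The members and lists were chosen with earlier results of these data known. Per-library values are given by rule for members past the threshold, for the 3 with the largest change and the 3 with the smallest p in each comparison, for the highest per length in each role and for members below the filter; PGAM1, VEGFA, SLC2A1 and EPAS1 were added after their values were seen. Other lists give members past the threshold, at most 4 per comparison, or the 1 with the smallest p. Intervals cover the spread left between these libraries once the block takes out differences between replicate numbers. The median standard error of the 39 genes at 20 µM against vehicle was 0.053 with the block and 0.123 without it. The alternatives were DESeq2, limma-voom, RLE size factors, no filter, 2 groups alone and libraries left out, each with and without the block.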

Additional observations from a re-analysis of the deposited data

How the results depend on the processing

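The planned fit without a block called 0 of the 39 genes in each dose comparison, and so did every alternative without the block. With the replicate block, the count at 20 µM against vehicle was 2 in edgeR, limma-voom and edgeR with RLE size factors, 1 with DESeq2 (PKM), and 3 without the filter on low counts and with only these 2 groups (ENO1 added). Leaving out 1 library gave 0 to 5 calls with the block and 0 without it; 5 came without replicate 2 at 10 µM (GAPDH, PGAM1 and ENO1 added). With the block, leaving out all libraries of replicate 2 gave 1 call (PKM, adjusted p = 0.0312), and leaving out all of replicate 1 or replicate 3 gave 0. At 20 µM against 10 µM the count was 0 in all settings but 1 (PKM) without replicate 2 at 10 µM with the block, a range of 0 to 1 over the libraries left out, and at 10 µM against vehicle it was 0 in all settings. Between 25 and 31 genes differed by replicate number over the alternatives, against 29. With the block, PKM and EGLN3 kept their sign in every setting; without the block and without replicate 1 at 20 µM, EGLN3 was -0.26 on the log2 scale and did not pass. The values of GBE1, CA12 and TXNIP without single libraries were added after seeing the data. The median change of the 39 genes at 20 µM against vehicle ran from 0.03 to 0.10 over the fits without 1 library, at 10 µM against vehicle from 0.01 to 0.08 with the block, and at 20 µM against 10 µM it changed sign in some of them. Low counts limit SLC2A3, CA9, ALDOA and LDHB, which had under 4 CPM in every library. Of exon bases, 53.5% in ALDOA, 38.5% in CA9 and 33.4% in LDHB are shared with another annotated gene, and reads on both were not counted.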
